A study of Drosophila melanogaster with 12 samples.

Results

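The nuclear genes of the mitochondrial respiratory chain and ATP synthase, and the duplicated copies that several of them have in the fly genome, were followed in testes and ovaries of Drosophila melanogaster. Members were taken by FlyBase symbol, as every feature whose symbol begins with ND-, COX, UQCR-, ATPsyn or Cyt-c. The annotation holds 84 such symbols, and 83 of them are among the 17558 features of every count file. Cyt-c-p, the general cytochrome c gene, is not analysed here. A symbol that ends in L, or the symbol Cyt-c-d, marked a gene as a paralog, which gave 19 paralogs and 60 general subunits. Another 4 genes whose symbol ends in L and a number, COX6AL2, COX7AL2, ND-51L1 and ND-51L2, were kept as numbered paralogs, so that 23 paralogs were followed in all. ND-MNLL stayed with the general subunits, since its last letters come from the name of a bovine subunit.

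The samples were 4 groups of 3 libraries each. Control flies, labelled cas9 iso, and Tdrd5l mutant flies were kept at 25 °C. Males gave testes at an age of 1 to 2 days, and females gave ovaries at 0 to 1 day. Tdrd5l encodes a Tudor domain protein of the male germline, and the study asked how its loss changes gene expression in each gonad. Ribosomal RNA was removed from the testis samples, whereas ovary samples were poly(A) selected, so tissue, RNA selection and age cannot be told apart in any comparison of testis with ovary. The labels speak of 3 biological replicates per genotype, and 200 ng of RNA went into each library. In bulk gonads, fewer cells of a type and less RNA per cell cannot be told apart either.

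The respiratory chain passes electrons from NADH through complex I and from succinate through complex II to ubiquinone, then through complex III and cytochrome c to oxygen at complex IV. The proton gradient made on the way drives ATP synthase. Most subunits of these complexes are encoded in the nucleus and made in all tissues. Flies also carry duplicate copies of a number of subunit genes, and many such copies are known for expression in the male germline, where mitochondria fuse into a large body and then elongate with the growing sperm tail. Cyt-c-d is best known for its part in caspase activation while spermatids separate, and Cyt-c-p for respiration.

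Depth, as reads counted on genes, was 1390699 to 2880119 per testis library. For ovary the range was 772292 to 1647933. Tdrd5l, listed in the annotation under the symbol CG15930, had 542, 549 and 684 counts in control testis libraries 1, 2 and 3 and 938, 739 and 679 in the mutant ones. In ovary libraries it had 9, 4 and 6 counts in controls and 12, 8 and 11 in mutants. The count over the whole gene was not lower in the libraries labelled mutant, and the sources used here do not say what the lesion removes. The 10 spermatocyte and spermatid markers summed to between 4848 and 9033 CPM (counts per 1000000, scaled by TMM over the 12 libraries) in testis libraries and to at most 16.03 in ovary libraries. All 5 female germline markers had at least 10 counts in each ovary group, but all 5 did in control testis too. Of the 4 tested in controls, 2 were called higher in testis and 2 lower, so this list does not set the tissues apart.

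Where the exons of a gene run opposite those of another gene, it matters which strand a read was counted on. The kit that the labels name, TruSeq RNA v2, keeps no strand information, but genes that share all their bases with an opposite gene were not counted evenly with it. COX5BL, all of whose exon bases lie opposite Trmt6, had 421 counts against 39104 in control testis and 333 against 25 in control ovary. UQCR-14, which lies wholly opposite CG32576, had 53 against 3773 and 65 against 13154. Between 76.9% and 92.5% of all records in a library fell in no feature. Which strand the counts report was not tested, so the levels and directions of members with opposite exons are uncertain. For members with no opposite exon, how well counts track RNA was not measured. Features without such bases held 26.7% to 43.3% of gene counts in testis libraries. In ovary libraries they held 14.3%, 8.10% and 7.90% in control libraries 1, 2 and 3 and 5.74%, 30.2% and 6.05% in the mutant ones. Mutant ovary library 2 stood apart from the other 2 mutant ovary libraries by this share. Muscle markers, which could come from the muscle sheath around the ovary, summed to 3223 CPM in that library against 552 and 617 CPM in mutant ovary libraries 1 and 3. They summed to 2724, 1114 and 1111 CPM in the control ovary libraries and to between 482 and 616 CPM in testis. Follicle cell markers summed to 678 CPM in mutant ovary library 2, to 56.7 CPM in control ovary library 1 and to between 16.03 and 41.7 CPM in the other ovary libraries. Female germline markers summed to 844, 471 and between 317 and 429 CPM in the same order. In testis libraries follicle cell markers summed to between 49.3 and 115.2 CPM and female germline markers to between 228 and 341 CPM. Opposite exons are therefore named with most members below, and most ovary values are given library by library. ND-B14.5A and UQCR-C2 have opposite exons as well, over 2.23% and 0.24% of their exon bases.

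The paralogs were counted in testis and, for most of them, not in ovary. Of the 23 paralogs, 22 had counts in every testis library. In ovary, 12 of the 23 had 0 counts in all 6 libraries and 18 had at most 10 counts over the 6 libraries together. Among genes with no opposite exon and at least 10 counts over the control testis libraries, 11 of 18 paralogs and 0 of 33 general subunits had 0 counts in every ovary library, and 21% of all 7587 such features did. Mutant ovary library 2, the deepest ovary library, had 0 counts for 14 of the 23 paralogs, while the general subunits with no opposite exon had a median of 80 counts there.

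**Figure D1:**
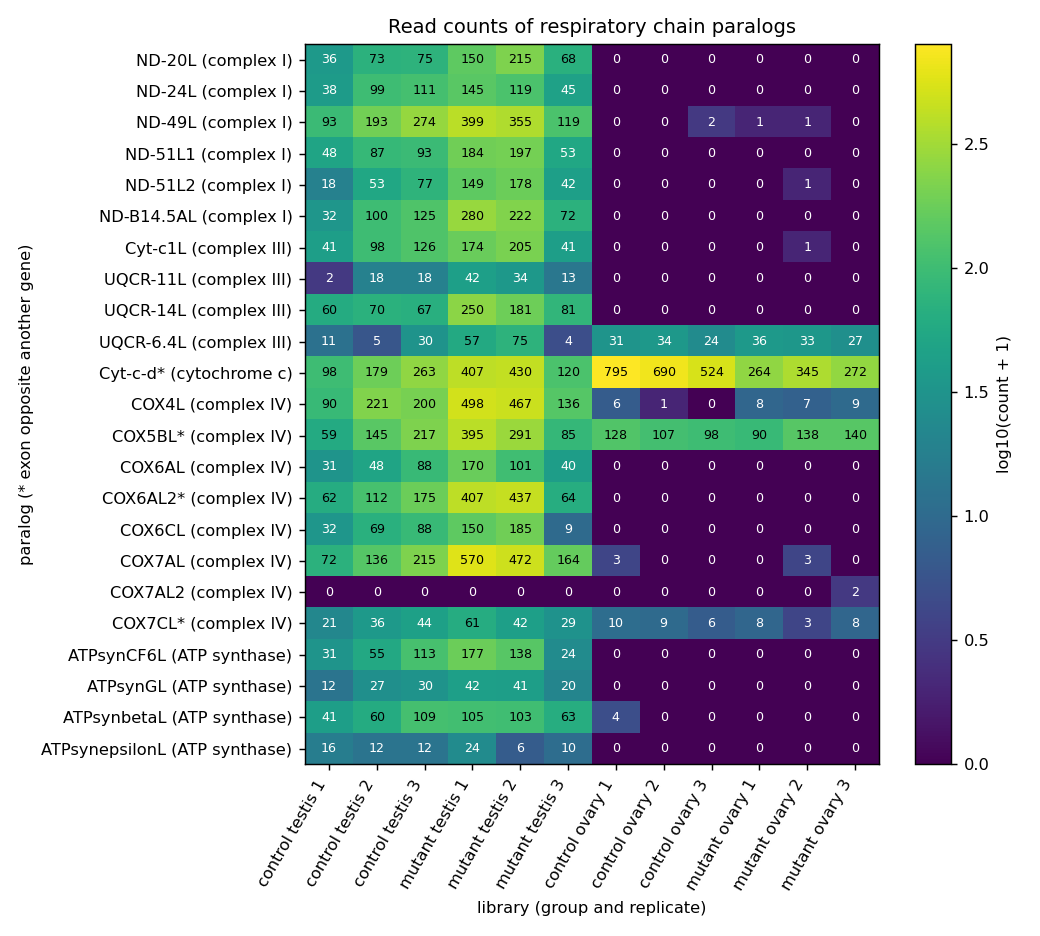
Read counts of the 23 paralogs (rows, by complex) in the 12 libraries (columns, by group and replicate); the number in each cell is the count and the colour is log10(count + 1). Most rows hold counts in the 6 testis libraries and 0 in ovary, apart from Cyt-c-d, COX5BL, UQCR-6.4L and COX7CL, which have counts in every ovary library.

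In complex I, which takes electrons from NADH, 6 paralogs were counted. ND-20L is a copy of an iron-sulfur subunit at the quinone end of the complex. It had 36, 73 and 75 counts in control testis libraries 1, 2 and 3, 150, 215 and 68 in the mutant ones, and 0 in all 6 ovary libraries. Its level was at least 27.6-fold higher in control testis than in control ovary, with 3 counts over a group taken as the floor for a group at 0, and at least 70.6-fold higher in mutants. ND-24L and ND-51L1, copies of the subunits of the NADH-oxidising tip, and ND-B14.5AL, a copy of an accessory subunit, were also at 0 in every ovary library. Their lower bounds were 37.2-fold, 34.2-fold and 38.6-fold in controls.

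ND-49L, a copy of a core subunit, was the most counted complex I paralog, with 93, 193 and 274 counts in control testis and 399, 355 and 119 in the mutant ones. In ovary it had 0, 0 and 2 counts in controls and 1, 1 and 0 in mutants. The ratio of its scaled counts between testis and ovary was 126.1 in controls, with a 95% exact counting interval of 34.7 to 1044, and 213.5 (58.9 to 1766) in mutants. ND-51L2, a further copy of ND-51, had a single count in the 6 ovary libraries, in mutant ovary library 2, against 18 to 178 counts in testis libraries.

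In complex III, which passes electrons from ubiquinol to cytochrome c, Cyt-c1L is a copy of the haem-bearing cytochrome c1. It had 41, 98 and 126 counts in control testis and 174, 205 and 41 in mutant testis. A single count in mutant ovary library 2 was its total in ovary, which put control testis at least 39.8-fold above control ovary. UQCR-14L was at 0 throughout ovary and at 60, 70 and 67 counts in control testis and 250, 181 and 81 in mutant testis. UQCR-11L was scarce, with 2, 18 and 18 counts in control testis and 42, 34 and 13 in mutant testis, and at 0 throughout ovary. The testis and ovary libraries of these 3 genes did not overlap.

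UQCR-6.4L went the other way. It had 11, 5 and 30 counts in control testis and 31, 34 and 24 in control ovary, with 57, 75 and 4 in mutant testis and 36, 33 and 27 in mutant ovary. In CPM the 3 control testis libraries lay below the 3 control ovary libraries, at 7.77 ± 4.80 against 36.2 ± 8.32 (SD, n = 3 each). It has no opposite exon. The testis minus ovary difference was -2.18 on the log2 scale in controls (SE 0.51, adjusted p = 0.000945, edgeR) and -1.16 in mutants (SE 0.78, adjusted p = 0.216).

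In complex IV, cytochrome c oxidase, COX7AL had 72, 136 and 215 counts in control testis and 570, 472 and 164 in mutant testis, with 3, 0 and 0 in control ovary and 0, 3 and 0 in mutant ovary. All testis libraries were far above all ovary libraries. The ratio of testis to ovary was 63.5 (21.6 to 309) in controls and 196.6 (67.1 to 955) in mutants. COX7AL lies on chromosome 3R at 8343669 to 8344310, plus strand, in the coordinates of BDGP6.54, and COX7A lies beside it on the minus strand at 8339944 to 8341043.

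COX6AL and COX6CL, copies of the genes levy and cype, were at 0 in every ovary library. In control testis COX6AL had 31, 48 and 88 counts and COX6CL had 32, 69 and 88. COX6AL2 was at 0 in ovary and at 62 to 437 counts in testis, but 16.1% of its exon bases lie opposite another gene, Prp6, and 67.0% overlap Ir75d on its own strand. Prp6 had 6436 counts over the control testis libraries and 12 over the control ovary libraries. How the overlap divided reads among these genes was not tested.

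COX4L had a low level in ovary beside a high one in testis. Its counts were 90, 221 and 200 in control testis, 498, 467 and 136 in mutant testis, 6, 1 and 0 in control ovary and 8, 7 and 9 in mutant ovary. The difference between testis and ovary was 4.99 (log2, SE 0.59, adjusted p = 8.01e-07, edgeR) in controls and 3.97 (SE 0.73, adjusted p = 0.000173) in mutants. COX7AL2 had no count in any testis library and 2 counts in mutant ovary library 3. COX7CL, which shares 3.17% of its exon bases with the opposite gene sel, had 21, 36 and 44 counts in control testis and 10, 9 and 6 in control ovary, a difference that did not pass the test (0.83, SE 0.49, adjusted p = 0.136).

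Among ATP synthase paralogs, ATPsynCF6L, a copy of coupling factor 6 of the stalk, had 31, 55 and 113 counts in control testis and 177, 138 and 24 in mutant testis. ATPsynGL, a copy of the g subunit, had 12, 27 and 30 and then 42, 41 and 20. ATPsynepsilonL, a copy of the gene sun, had 16, 12 and 12 and then 24, 6 and 10. All 3 were at 0 in every ovary library, and their lower bounds in controls were 29.9-fold, 10.4-fold and 6.004-fold. ATPsynbetaL, a copy of the catalytic beta subunit, had 41, 60 and 109 counts in control testis and 4, 0 and 0 in control ovary, and none in mutant ovary.

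Cyt-c-d and COX5BL had a higher level in ovary than in testis in controls, and both have exons opposite another gene. Cyt-c-d lies on chromosome 2L at 16715891 to 16719635, and 36.4% of its exon bases lie opposite CG31808. Its level was 93.3 ± 17.9 CPM in control testis and 804 ± 102 CPM in control ovary (SD, n = 3 each), a difference of -3.11 (log2, SE 0.25, adjusted p = 1.10e-08, edgeR). CG31808 had 37103 counts over the control testis libraries and 25 over the control ovary libraries. All exon bases of COX5BL lie opposite Trmt6, which had 39104 counts over the control testis libraries and 25 over the control ovary libraries.

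COX5BL itself had 59, 145 and 217 counts in control testis and 128, 107 and 98 in control ovary. The CPM of its testis libraries, 71.0 ± 23.7, lay below those of its ovary libraries, 134 ± 11.6 (SD, n = 3 each), and the difference of -0.92 (SE 0.33, adjusted p = 0.0177) was lost without control testis library 1 (-0.60, adjusted p = 0.0926) or 2 (-0.91, adjusted p = 0.0547), with scaling by library size alone (-0.76, adjusted p = 0.0575) and in 1 model of all 12 libraries (adjusted p = 0.0998). For both genes the opposite partner was high in testis and near 0 in ovary, the reverse of the paralog's own direction. To which gene of each pair the reads belong was not tested.

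A member passes the filter on low counts in a tissue comparison if 1 tissue alone counts it well, so the paralogs at or near 0 in ovary that were tested had to differ, and their number supports nothing. Of the 23 paralogs, 20 were tested in controls. Of these, 16 were called higher in testis and 3 lower (Cyt-c-d, UQCR-6.4L and COX5BL), where 75.7% of 8427 features were called, 49.3% higher and 26.5% lower. In mutants 20 were tested and 16 called higher and 0 lower, where 57.5% of 9182 features were called, 38.2% higher and 19.3% lower. The paralogs that failed the filter were COX7AL2 in both genotypes, ATPsynepsilonL in both, UQCR-11L in controls and COX6CL in mutants.

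The share of paralogs among all member counts of a library does not depend on scaling between libraries. With members that have opposite exons left out, this share was 30.7%, 39.2% and 38.5% in control testis libraries 1, 2 and 3 and 43.1%, 40.0% and 33.2% in the mutant ones. In ovary it was 5.24%, 14.3% and 9.52% in controls and 17.2%, 1.03% and 20.5% in mutants. These ovary shares rest on 44, 35 and 26 paralog counts in controls and 45, 46 and 38 in mutants. UQCR-6.4L, whose counts are given above, held most of them in every ovary library. Every testis library lay above every ovary library, and mutant ovary library 2 was the lowest of all.

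Within control testis, copies were compared with their counterparts per kilobase of merged exon, since levels of different genes depend on length. Of 21 pairs with counts, the paralog was the higher one in 13 and the counterpart in 8, with a median log2 ratio of paralog to counterpart of 1.11. Where neither gene has an opposite exon, the paralog was higher in 10 of 11, and the median was 1.93. These ratios are within libraries and were not tested.

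The pairs in which the copy was far above the general gene included Cyt-c1L, whose log2 ratio to Cyt-c1 was 2.27, 4.85 and 3.75 in control testis libraries 1, 2 and 3, or 12.5-fold from the pooled counts. Cyt-c1 had only 10, 4 and 11 counts there. COX4L exceeded COX4 by 3.14, ND-B14.5AL exceeded ND-B14.5A by 3.10, ND-49L exceeded ND-49 by 2.79 and ATPsynCF6L exceeded ATPsynCF6 by 2.74 on the log2 scale of pooled counts per kilobase. UQCR-11L was 27.7-fold above UQCR-11, whose counts were 0, 3 and 2, so that ratio rests on 5 counts. In each of these pairs the paralog was higher in every control testis library in which both genes had counts.

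The reverse held for 8 pairs. ATPsynG, the g subunit of the membrane part of ATP synthase, had 292, 252 and 354 counts in control testis against 12, 27 and 30 for ATPsynGL, a log2 ratio of -3.17. ND-51, the subunit that takes electrons from NADH, exceeded ND-51L1 and ND-51L2 with ratios of -2.41 and -2.58. COX7C was far above COX7CL at -4.07. COX7AL and COX7A stood at a ratio of 0.13, with the copy lower in library 1 (-0.38) and higher in libraries 2 and 3 (0.24 and 0.28).

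**Figure D2:**
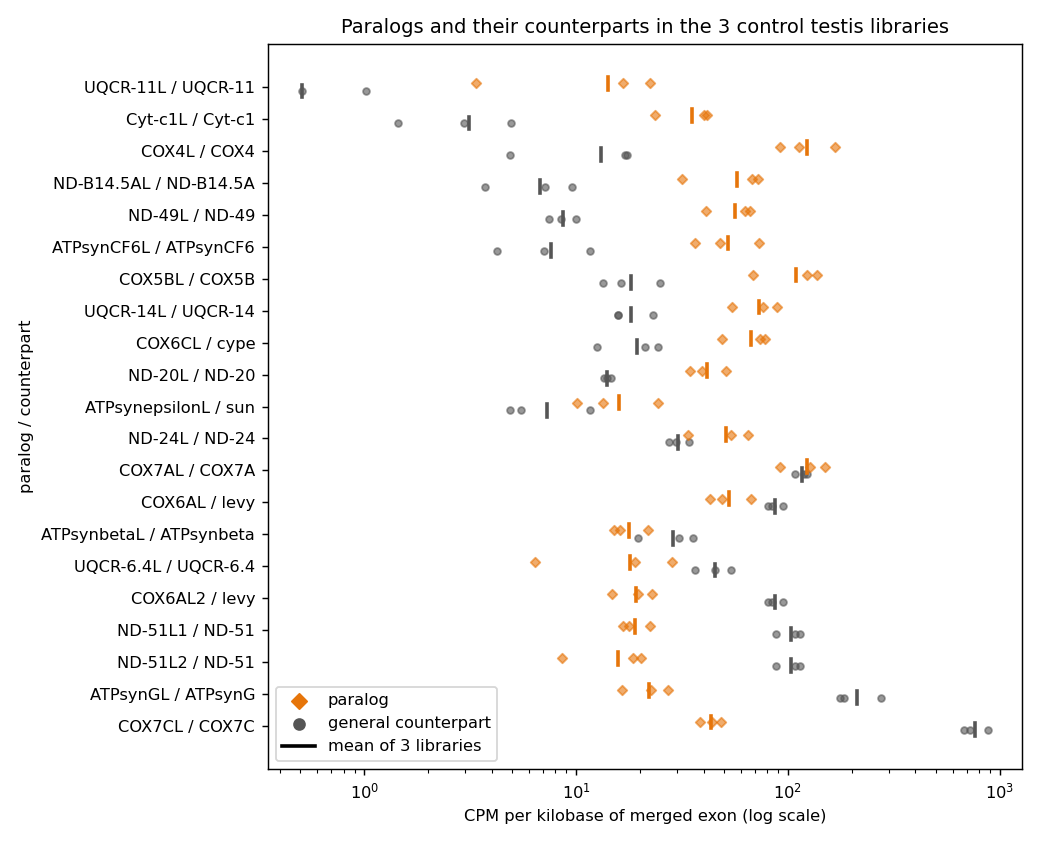
Level of each paralog (orange diamonds) and its general counterpart (grey circles) in the 3 control testis libraries, in CPM per kilobase of merged exon on a log axis; bars mark the mean of 3 libraries and a library with 0 counts is not drawn. Copies such as UQCR-11L, Cyt-c1L and COX4L lie to the right of their counterparts, and ATPsynGL and COX7CL lie far to the left of theirs.

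In mutant testis 12 of 21 paralogs exceeded their counterpart, and the median ratio was 0.69 on the log2 scale. Where neither gene has an opposite exon, 8 of 11 did, and the median was 2.39. ND-24L moved from 0.78 in controls to -0.04 in mutants and ATPsynepsilonL from 1.11 to -0.29, while UQCR-6.4L moved from -1.28 to 0.41. The 3 mutant testis libraries of ATPsynepsilonL ranged from -1.79 to 3.20, and those of UQCR-6.4L from -3.08 to 1.25, so these 2 shifts lie within the spread between libraries. For ND-24L the mutant libraries, at 0.18, -0.14 and -0.36, all lay below the control ones, at 0.30, 0.92 and 0.86. For ND-20L they lay above, at 2.19, 2.64 and 2.16 against 1.24, 1.87 and 1.54 in controls. UQCR-11L also lay above in the libraries where a ratio could be formed. Exact permutation of 3 against 3 libraries cannot give a p below 0.1, and these shifts, picked from 21 pairs, were not tested. In ovary a ratio could be formed for 7 pairs in controls, and COX5BL alone exceeded its counterpart.

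The copies also shared features of position and structure that their names do not carry. None of the 23 paralogs lies on the X chromosome, against 12 of 61 general subunits in the annotation (19.7%) and 15.7% of all 13986 protein-coding genes. For the 5 pairs whose counterpart is X-linked, the copy is on an autosome in all 5. At most 2 exons were annotated for 18 of the 23 paralogs (78.3%), for 12 of the 61 general subunits (19.7%) and for 36.6% of protein-coding genes. COX6AL, ND-24L, ND-51L1, ND-B14.5AL and UQCR-14L have a single exon, and 18 of 23 paralogs have fewer exons than their counterpart. COX6AL2, with 7 exons, is the 1 copy with more. Opposite exons were found for 4 of 23 paralogs (17.4%) and 25 of 61 general subunits (41.0%).

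General subunits did not move as a block. Of the 60, 59 had counts in both tissues. ND-MNLL, which shares all its exon bases with CG45089 on its own strand, was at 0 in all 12 libraries. Of the 60, 51 were tested in controls, and 21 were higher in testis, 9 lower and 21 did not pass, against 49.3% higher and 26.5% lower over all features. The median difference of all 8427 features was itself 1.04 on the log2 scale, and 23 of the 51 general subunits lay above it. With upper quartile scaling that median was 0.43, so differences depend on scaling. The calls and the differences printed here are against 0, not against that median. In mutants 56 were tested, 14 were higher in testis and 6 lower, with 21 of 56 above the median of all features of 0.83. The mutant count of higher calls was 6 without mutant testis library 3 and 27 without mutant ovary library 2, which moved the median of all features to 1.87. On data simulated for the mutant tissues, a 4-fold change was recovered for 0% of changed genes and a 16-fold change for 95.5%. In controls the figures were 96% and 100%. The simulation changed 200 well-counted genes per fit, far fewer than were called in the data, so its recovery need not hold for these members. In the mutant data ND-15, given below, was called at under 4-fold.

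**Figure D3:**
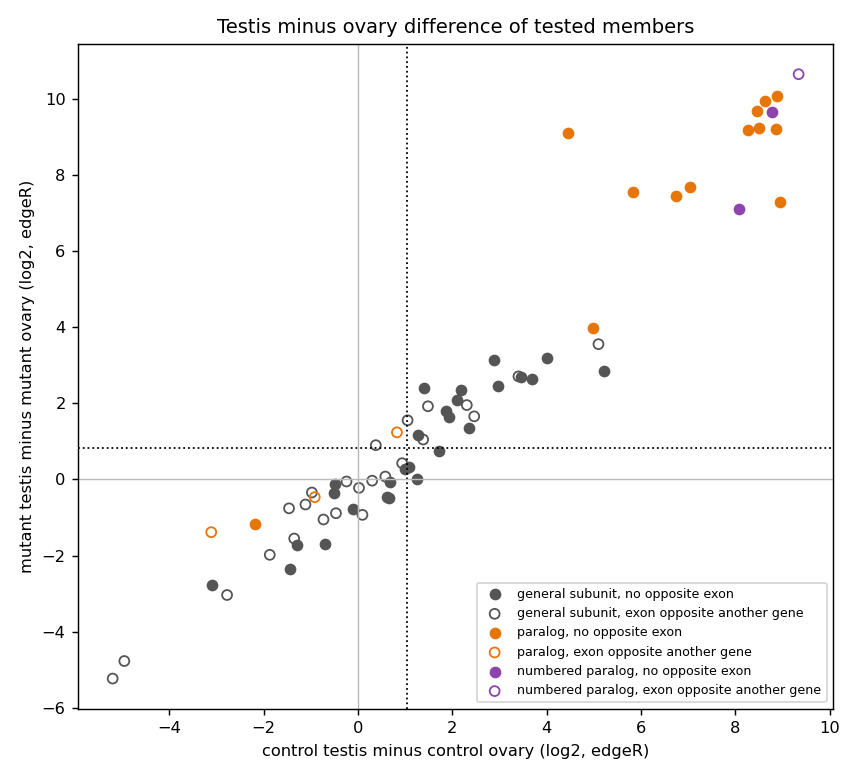
Testis minus ovary difference (log2, edgeR) of every member tested in both genotypes, controls on the x axis and mutants on the y axis; filled points have no opposite exon, open points have one, and dotted lines mark the medians of all features, 1.04 and 0.83. General subunits spread on both sides of the medians, and most paralogs lie at the upper right, where fitted values depend on the prior count because ovary counts are at or near 0.

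Several complex I subunits led the general genes that were higher in testis. ND-51 had 229, 331 and 341 counts in control testis and 10, 0 and 2 in control ovary, then 461, 471 and 366 in mutant testis and 6, 69 and 3 in mutant ovary. The difference was 5.10 (log2, SE 0.55, adjusted p = 4.46e-07, edgeR) in controls and 3.55 (SE 0.75, adjusted p = 0.000519) in mutants, and 6.10% of its exon bases lie opposite CG34180. ND-39, an accessory subunit with no opposite exon, had 227, 318 and 314 counts in control testis and 18, 3 and 4 in control ovary.

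For ND-39 the difference was 4.01 (SE 0.45, adjusted p = 5.18e-07) in controls and 3.18 (SE 0.83, adjusted p = 0.00349) in mutants. All testis libraries of both genes lay above all ovary libraries in CPM. ND-B17.2, an accessory subunit without a paralog here, behaved like a paralog in controls, with 35, 87 and 68 counts in testis and 0, 0 and 2 in ovary, a ratio of 42.8 (95% counting interval 11.7 to 356). Its mutant ovary libraries had 2, 26 and 2 counts.

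ATPsynG had 28, 4 and 2 counts in control ovary beside the testis counts above, a difference of 3.69 (SE 0.54, adjusted p = 1.51e-05) in controls and 2.63 (SE 0.84, adjusted p = 0.0123) in mutants. The mutant call was lost without mutant testis library 3 (2.63, adjusted p = 0.0999). COX7A had 111, 137 and 210 counts in control testis and 15, 2 and 2 in control ovary, a difference of 3.45 (SE 0.50, adjusted p = 7.85e-06). ATPsynB, the stator subunit b, differed by 2.97 in controls (SE 0.53, adjusted p = 0.000103).

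The general subunits that were lower in testis were led by 2 genes of complex I with opposite exons, so that their direction is as uncertain as that of Cyt-c-d and COX5BL. ND-ASHI had 66, 47 and 91 counts in control testis and 1260, 1023 and 1059 in control ovary, then 128, 92 and 75 in mutant testis and 1305, 1533 and 1404 in mutant ovary. Its difference was -5.20 (SE 0.29, adjusted p = 1.29e-10) in controls and -5.23 (SE 0.72, adjusted p = 1.07e-05) in mutants. It lies on the X chromosome at 6677262 to 6679118, and 5.56% of its exon bases lie opposite another gene, Fum1, which is not analysed here. ND-B16.6, with 17.5% of its exon bases opposite CG3847, had 11, 22 and 38 counts in control testis and 343, 333 and 266 in control ovary, a difference of -4.95 (SE 0.33, adjusted p = 9.87e-10).

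Cyt-c1, which has no opposite exon, was lower in testis by a similar measure in both genotypes. It had 10, 4 and 11 counts in control testis and 41, 22 and 34 in control ovary, and its difference was -3.08 (SE 0.52, adjusted p = 3.95e-05) in controls and -2.77 (SE 0.84, adjusted p = 0.0095) in mutants. The mutant call was lost without mutant testis library 3 (-2.28, adjusted p = 0.122) or without mutant ovary library 2 (-1.45, adjusted p = 0.0723). Its copy Cyt-c1L had the opposite pattern, as given above. The general gene and its copy thus stood at opposite ends, with 4.73 ± 2.65 and 45.4 ± 12.8 CPM in control testis and 38.7 ± 9.27 and 0 CPM in control ovary (SD, n = 3 each).

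UQCR-6.4, a small subunit of complex III, was lower in testis in both genotypes as well, with differences of -2.77 (SE 0.32, adjusted p = 6.84e-07) in controls and -3.03 (SE 0.65, adjusted p = 0.000652) in mutants. It has 40.5% of its exon bases opposite POSH, which had 220 counts over control testis and 212 over control ovary. ND-15, with 15.7% opposite Pus10, had differences of -1.87 (SE 0.31, adjusted p = 3.13e-05) and -1.98 (SE 0.68, adjusted p = 0.0183), and the mutant call ended without mutant testis library 1 (adjusted p = 0.0874) or 2 (adjusted p = 0.125). Pus10 had 3494 counts over control testis and 23 over control ovary. ATPsynE, with no opposite exon, had a difference of -1.44 in controls (SE 0.52, adjusted p = 0.0188), a call that ended without control testis library 1, control testis library 2 or control ovary library 1 (adjusted p of 0.0769, 0.0807 and 0.0839) and in 1 model of all 12 libraries (adjusted p = 0.0963). Scaling by library size alone ended the mutant calls of ND-39 (adjusted p = 0.0693), Cyt-c1 (0.0696) and ATPsynG (0.132).

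By complex, 12 of 29 tested complex I subunits were higher in control testis and 5 lower. In complex III, 2 of 5 were higher, the core subunits UQCR-C1 and UQCR-C2, and 3 were lower. The UQCR-C1 call (edgeR) was lost with upper quartile scaling (0.63, adjusted p = 0.144) and with features with no opposite exon (0.47, adjusted p = 0.265). It was also lost in 1 model of all 12 libraries (1.28, adjusted p = 0.1105). In complex IV, 3 of 7 were higher and 0 lower. In ATP synthase, 4 of 10 were higher and 1 lower. Over all features 49.3% were higher and 26.5% lower. With 5 to 29 subunits tested per complex, the distance of each share from that background was not tested.

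Levels per kilobase ranked COX7C, a small subunit of complex IV, first among general subunits in control testis at 761 CPM per kilobase. ATPsynG at 212, COX5A at 168, ND-13A at 159 and ND-B12 at 142 CPM per kilobase followed. Between neighbours in that order the spread overlapped for the last 4 of these genes. COX7C had 1007, 1123 and 1406 counts in control testis, and 15.7% of its exon bases lie opposite oys. For COX5A, ND-13A and ND-B12, 5.53%, 12.4% and 1.32% of exon bases lie opposite another gene. In control ovary the order was ND-ASHI at 975, COX7C at 391, UQCR-6.4 at 308, ND-B16.6 at 301 and ND-15 at 176 CPM per kilobase, and all 5 have opposite exons, and to which gene of each pair the reads belong was not tested. Among general subunits with no opposite exon, control ovary was led by ATPsynC at 46.2, COX6B at 39.7, ATPsynE at 28.7, ATPsynD at 27.5 and Cyt-c1 at 25.4 CPM per kilobase. The same order in control testis was ATPsynG at 212, ATPsynB at 123, COX7A at 117, ND-39 at 97.7 and ND-PDSW at 53.0 CPM per kilobase.

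Summed over members with no opposite exon, general subunits reached 1187, 1215 and 1214 CPM in control testis libraries 1, 2 and 3 and 1603, 1539 and 1346 CPM in the mutant ones. In ovary the same sum was 751, 280 and 348 CPM in controls and 312, 1889 and 207 CPM in mutants. The 2 ovary libraries with the highest sums, control 1 and mutant 2, were also those with the highest sums of muscle, follicle cell and female germline markers given above. Relative to all counts in features with no opposite exon, general subunits held 3.61 to 3.92 per 1000 in control testis and 3.08 to 5.75 per 1000 in control ovary, which overlap. Paralogs held 1.74 to 2.52 per 1000 in control testis and 0.318 to 0.513 in control ovary, which do not. The part of these cell types in the ovary sums was not tested.

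**Figure D4:**
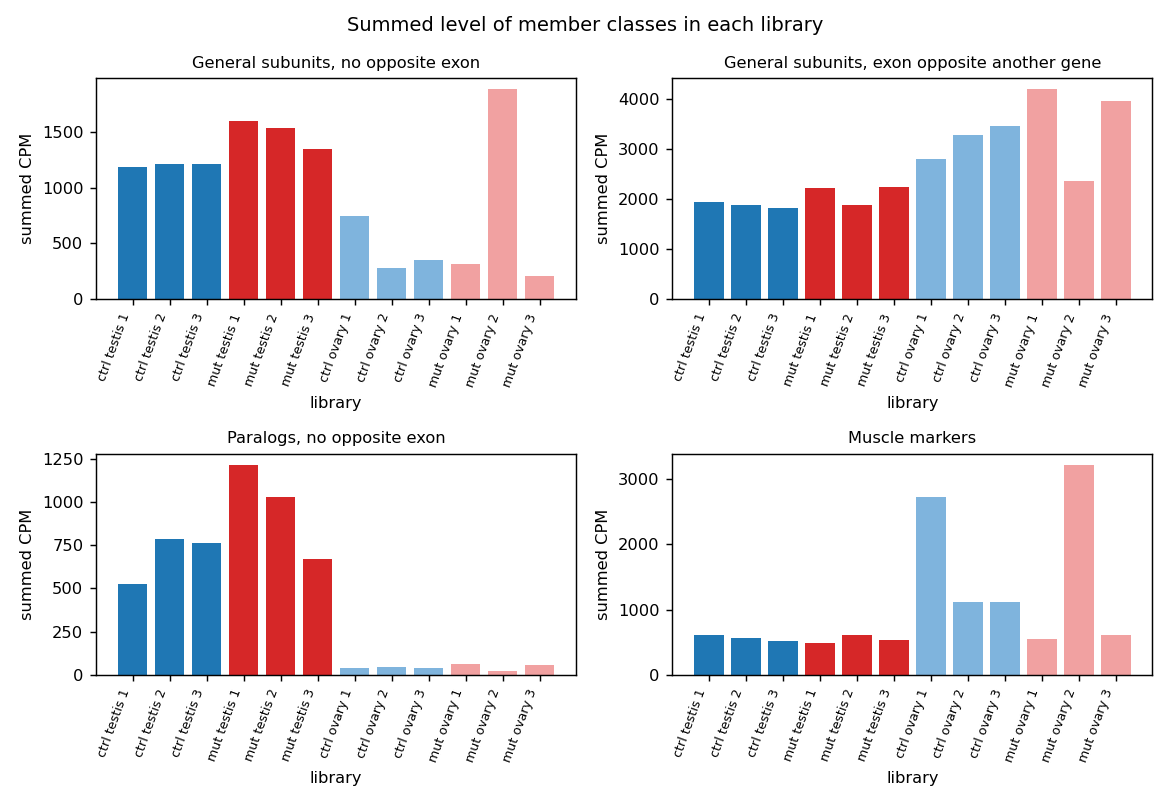
Summed CPM in each of the 12 libraries (ctrl, control; mut, mutant) of general subunits without and with an opposite exon, of paralogs with no opposite exon, and of muscle markers; each bar is 1 library and each panel has its own axis from 0. General subunits with no opposite exon reach 1889 CPM in mutant ovary library 2, where muscle markers reach 3223 CPM, and paralogs are low in all ovary libraries.

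No member passed the threshold between control testis libraries and those labelled Tdrd5l mutant, whose Tdrd5l counts were not lower. Of 9768 features tested, 92 (0.942%) were called, 31 higher (0.317%) and 61 lower (0.624%) in mutant testis, and 0 of 78 tested members were among them. DESeq2 and limma-voom also called 0 members. At an unadjusted p under 0.05, 8 of 78 members and 712 of all features passed. The median difference, mutant minus control, was 0.15 on the log2 scale over 56 general subunits and 0.37 over 22 paralogs, beside 0.03 over all features, and 39 of 56 and 18 of 22 were above 0. On data simulated for this comparison, a 4-fold change was recovered for 95.5% of changed genes. Only well-counted genes were changed there, so recovery for members with few counts was not measured.

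COX7AL had the smallest p in testis. Its level was 53.9, 74.8 and 88.3 CPM in control libraries 1, 2 and 3 and 194, 147 and 109 CPM in the mutant ones, so the groups did not overlap. The difference of 1.02 (log2, SE 0.33, unadjusted p = 0.0041) had an adjusted p of 0.217. ND-PDSW, an accessory subunit of complex I, had 39.1 ± 4.77 CPM in controls and 68.8 ± 15.0 CPM in mutants (SD, n = 3 each) without overlap, with a difference of 0.80 and an adjusted p of 0.517. ATPsynB had 113 ± 23.9 and 199.6 ± 65.1 CPM with overlap, a difference of 0.80 and an adjusted p of 0.519. None of these 3 passed.

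The 3 mutant libraries were all above the 3 control libraries for 8 members, COX4, COX8, ND-24, ND-42 and ND-PDSW among general subunits and COX7AL, ND-20L and UQCR-14L among paralogs. Over all features 6.03% were arranged that way, and 5.95% in the reverse way, in which 0 members were. Exact permutation of 3 against 3 libraries cannot give a p below 0.1.

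Mutant testis library 3 decided these calls. Without it 725 of 10619 features were called, and 6 of 80 tested members passed, a share near that of all features. All 6 members were higher in mutants. They were COX7AL (1.17, adjusted p = 0.00214), COX6AL2 (1.14, adjusted p = 0.00348), ATPsynB (1.02, adjusted p = 0.00708), ND-PDSW (0.91, adjusted p = 0.0385), ND-51L2 (1.02, adjusted p = 0.0423) and UQCR-14L (0.90, adjusted p = 0.0493). That library had 26.7% of its counts in features with no opposite exon against 39.5% and 43.3% in mutant libraries 1 and 2. Its spermatocyte and spermatid markers summed to 4952 CPM against 9033 and 8669, and the control libraries summed to 4848, 5570 and 6101 CPM. The part of these markers in the member values was not tested.

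**Figure D5:**
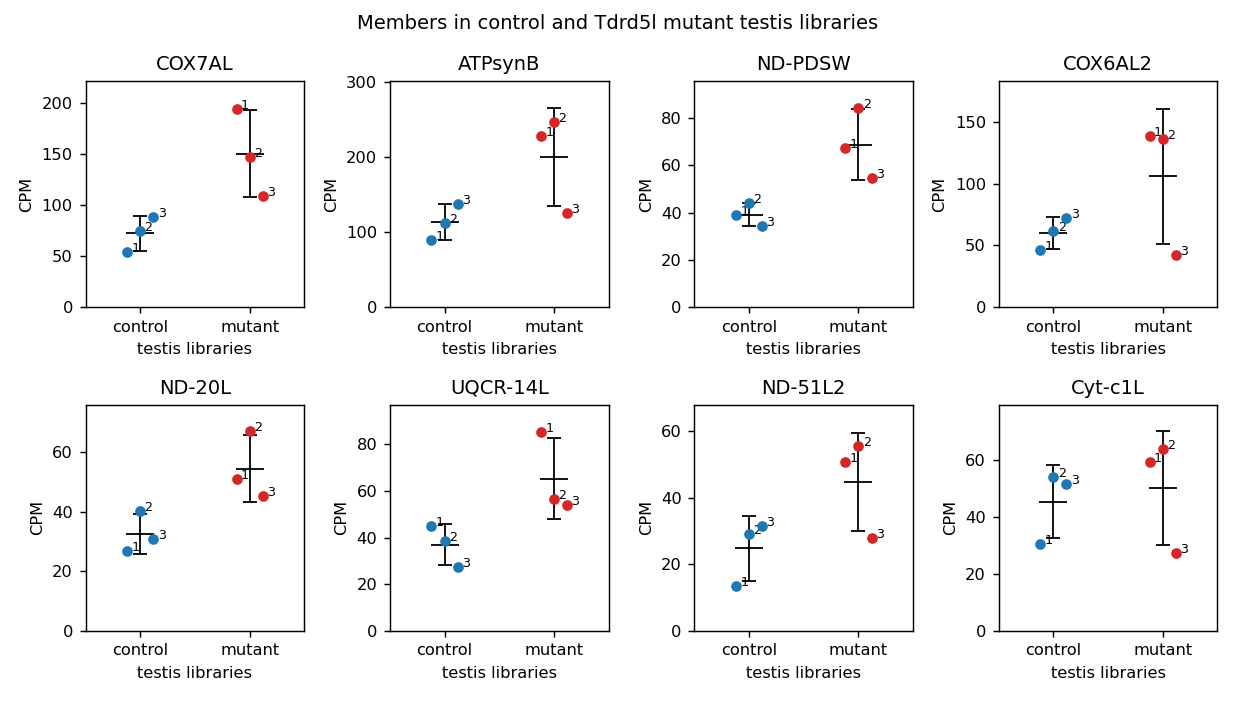
CPM of 8 members in the 3 control (blue) and 3 Tdrd5l mutant (red) testis libraries, with the replicate number beside each point and the mean ± SD of 3 libraries as a bar. Mutant library 3 is the lowest mutant library in all 8 panels, and COX7AL, ND-PDSW, ND-20L and UQCR-14L are those without overlap between genotypes.

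In ovary 0 of 4683 features (0%) were called between genotypes by edgeR, with 184 at an unadjusted p under 0.05, and DESeq2 called 14 and limma-voom 0. Of the members, 34 were tested and 0 called by any of the 3 tools. The 31 general subunits tested had a median difference of 0.49 on the log2 scale, mutant minus control, beside 0.14 over all features, with 24 above 0. Without mutant ovary library 2 the median was -0.17 and 10 of 31 were above 0. On data simulated for this comparison a 4-fold change was recovered for 1% of changed genes and a 16-fold change for 96%. Only well-counted genes were changed, so recovery for members with few counts was not measured. The lack of calls in ovary thus does not show a lack of differences.

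Among the 12 tested general subunits with no opposite exon, all had a positive difference in ovary, with a median of 1.06. When the fit was limited to features with no opposite exon, their median was 0.51 and 10 of 11 were positive. The median over all 1426 features of that fit was 0.11. The size of the difference thus depended on scaling. ATPsynC, the ring subunit of ATP synthase, had 152, 45 and 39 counts in control ovary and 41, 1042 and 41 in mutant ovary. UQCR-C1 had 26, 13 and 17 counts in control ovary and 11, 245 and 6 in mutant ovary. In both genes mutant ovary library 2 was the highest and the other 2 mutant libraries lay within or near the range of controls.

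Cyt-c-d was the member with the smallest p in ovary. It had 795, 690 and 524 counts in control ovary libraries 1, 2 and 3 and 264, 345 and 272 in the mutant ones, or 804 ± 102 and 303 ± 135 CPM (SD, n = 3 each), without overlap. Over all features 5.42% had all mutant ovary libraries below all control ones and 2.67% had them above. The difference was -1.37 (SE 0.32, unadjusted p = 0.00327) with an adjusted p of 0.722 by edgeR. Without mutant ovary library 2 it was -1.13 with an adjusted p of 0.0175, in a fit that called 55 of 4826 features. Over all alternatives the adjusted p ranged from 0.0175 to 1.0 and the difference stayed below 0. CG31808, on the other strand, had 25 counts over the control ovary libraries and 40 over the mutant ones.

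In testis Cyt-c-d had 98, 179 and 263 counts in controls and 407, 430 and 120 in mutants, a difference of 0.31 (SE 0.33, adjusted p = 0.906) with overlapping CPM. The difference between the 2 genotype effects, testis minus ovary, was 1.74 for Cyt-c-d, with an adjusted p of 0.747. For ATPsynbetaL it was 4.38 (adjusted p = 0.842), where ovary counts were 4 and 0 in the 2 genotypes, and for ND-B17.2 it was -2.41 (adjusted p = 0.973). Of 10321 features tested for this interaction, 3 (0.0291%) were called, 1 above 0 (0.00969%) and 2 below 0 (0.0194%), and 0 of 79 members, with 2 members and 550 features at an unadjusted p under 0.05. DESeq2 and limma-voom called 0 members. On data simulated for this interaction a 4-fold change was recovered for 0% of changed genes and a 16-fold change for 90%, all in well-counted genes. The lack of calls therefore does not show a lack of smaller differences.

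Other genes of the chain and its expression were followed as a list. Of these 29 genes 27 are in the files, and knon and Etf-QO are not analysed here. In controls 9 of 21 tested were higher in testis and 6 lower, in mutants 8 of 24 and 6, near the background of 49.3% and 26.5% in controls and 38.2% and 19.3% in mutants, and 0 were called between genotypes in testis (23 tested) or ovary (13 tested). SdhAL, a copy of the flavoprotein subunit of complex II, had 125, 220 and 332 counts in control testis and 0 in every ovary library, at least 101.6-fold higher in control testis. SdhBL, a copy of the iron-sulfur subunit, had 514, 770 and 825 counts in control testis and 1, 6 and 2 in control ovary, a difference of 6.66 (SE 0.45, adjusted p = 1.02e-09). SdhBL lies on the X chromosome, unlike the 23 paralogs above.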

How the data were processed

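RNA was measured by sequencing in 12 libraries, 3 per genotype and tissue. The authors deposited raw read counts per gene for each library. FastQC, TopHat2 2.1.1, HTSeq 0.9.1, DESeq and the BDGP6 genome are named in the submitters' processing notes. The sources used here do not give the strand setting of the counting. Gene counts were 1.82% to 4.18% of all records, records in no feature were 76.9% to 92.5%, and HTSeq's summary lines entered neither library sizes nor tests. Symbols, positions and exon overlaps came from Ensembl 115 (BDGP6.54), which holds 17252 of the 17558 features.

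Each comparison was fitted on its 6 libraries over all features with edgeR 4.0.16 (TMM scaling, filterByExpr at a minimum of 10 counts, glmQLFit and glmQLFTest with robust estimation). Tests were two-sided, and a feature was called at a Benjamini-Hochberg adjusted p under 0.05. The interaction used all 12 libraries. Alternatives were DESeq2 1.42.0, limma-voom (limma 3.58.1), other scalings, no filter, a replicate block, features with no opposite exon and each library left out. Each fit was tested on simulated data in which 200 well-counted genes were changed. For a group at 0, folds were bounded with 3 counts over that group as the floor. Floors and intervals reflect counting error alone.

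The members, pairs and lists were chosen with earlier results of these data known. Named genes are Tdrd5l, every paralog and counterpart, the 5 general subunits with the highest levels per kilobase in each control tissue, the 3 members with the smallest p where none was called, and the 5 general subunits with the largest tissue differences in each direction. COX8, ND-24, ND-42, ATPsynC, UQCR-C1, UQCR-C2 and ATPsynE beyond that rule were chosen after their values were seen. Promoters and protein sequences were not analysed here.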

Additional observations from a re-analysis of the deposited data

How the results depend on the processing

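Paralog counts here are over the 19 paralogs without a number unless all 23 are named. Leaving out 1 library moved the member counts as follows. In testis, higher calls in mutants ranged from 0 to 2 for general subunits and from 0 to 2 for paralogs, both reaching 2 without mutant testis library 3, where 4 of all 23 paralogs were called. In ovary, lower calls of paralogs ranged from 0 to 1, reached without mutant ovary library 2. In control tissues, general subunits called higher ranged from 19 to 24 and lower from 6 to 13, and paralogs from 12 to 14 around 13 and from 2 to 3. In mutant tissues the ranges were 6 to 27, 4 to 9, 13 to 15 around 13 and 0 to 2. Over all 23 paralogs the higher calls, 16 in both genotypes, ranged from 15 to 17 in control and from 16 to 18 in mutant tissues. The remaining counts were 0 throughout, and the median paralog to counterpart ratio stayed between 0.98 and 1.23 around 1.11. With features that have opposite exons left out, control tissues gave 8 general subunits higher, 5 lower and 1 paralog lower, and mutant tissues gave 9 general subunits higher and 1 paralog lower; fewer members were tested there. Upper quartile scaling gave 15 general subunits lower in control tissues, and 9 higher, 13 lower and 2 paralogs lower in mutant tissues. Scaling by library size alone gave 4 general subunits higher in mutant tissues, and 1 model of all 12 libraries gave 1 paralog lower there. Without mutant ovary library 2, mutant tissues gave 27 general subunits higher and 2 paralogs lower, and without mutant testis library 3, 6 higher. The cause of these shifts was not tested. The median ovary difference of general subunits changed sign without mutant ovary library 2, from 0.49 to -0.17. Single members were followed where they were called between tissues, had 1 of the 3 smallest p or were called between genotypes under any setting. No sign changed among these 97 main values. Under the alternatives 1344 values kept their side of the threshold, 82 lost it and 7 gained it, 6 without mutant testis library 3 and Cyt-c-d without mutant ovary library 2.

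Deviations from group means correlated at -0.56 to 0.30 between same-numbered libraries of the 2 genotypes or tissues. Between differently numbered libraries they correlated at -0.61 to 0.70. With 3 libraries per group, these values cannot settle whether the numbers pair the samples. With a replicate block, edgeR called 0 members between genotypes and 79 features in testis, against 92 without the block, and no count of members moved by over 1.5 times. Fewer features passed the filter in the ovary genotype comparison, 4683 against 9768 in testis, and the part of depth in this was not tested.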
